A study of Mus musculus with 6 samples.

Results

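Fatty acid oxidation was followed in mouse intestinal organoids through 33 genes, taken by symbol from the gene table shared by all 6 single-cell libraries, which holds 55335 gene rows. All 33 were present in every library. By the organelle in which their proteins are known to work, 18 are mitochondrial, 6 peroxisomal and 2 found in both. A further 5 activate fatty acids, take up carnitine or sit on lipid droplets, and 2 are coactivators of transcription. The assignment to organelles is general knowledge, not a measurement of these cells. The genes, and the related lists used below, were chosen with earlier results of these data known. Counts set beside the share of all genes are therefore descriptions only.

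The organoids were grown from single intestinal cells of wild-type C57BL/6 mice aged 8 weeks. Treatment began at day 0 and was repeated at day 3, when the medium was changed to ENR. The 4 libraries of day 4 (96 hours) came from organoids that received DMSO as vehicle, a compound blocking RXR (the retinoid X receptors) at 5 µM, all-trans retinoic acid at 10 µM, or vitamin A-free medium. At day 1 (24 hours) there were 2 vehicle libraries. The labels write both doses in "μm", read here as micromolar, and do not say whether the vitamin A-free organoids received DMSO. Organoids came from 2 mice in duplicate, but how mice map to libraries is not given, and cells were sorted to discard debris and dead cells.

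Fatty acids are first joined to coenzyme A by acyl-CoA synthetases. Long chains enter mitochondria as carnitine esters, through the CPT1 and CPT2 transferases and the carrier SLC25A20, and are then shortened by repeated cycles of dehydrogenation, hydration, a second dehydrogenation and thiolysis. Peroxisomes run a related cycle on very long and branched chains and pass shortened products on. In the small intestine absorptive enterocytes handle most dietary fat, and many genes of both pathways are known targets of PPAR receptors, which bind DNA together with RXR.

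A promoter shared by a pair of the genes and one with a receptor-like element are shown here because the genes behind them are among those described most closely below. Windows are from RefSeq on GRCm38.p6 and run from 250 bases before to 50 bases after a gene's start. Hadha and Hadhb, which encode the alpha and beta subunits of the mitochondrial trifunctional protein, are transcribed away from each other. Their RefSeq starts lie 273 bases apart, so that the windows share 228 bases. The Hadhb window (chr5:30155003-30155302, plus strand) is given with the bases that also lie in the Hadha window in capitals.
Hadhb: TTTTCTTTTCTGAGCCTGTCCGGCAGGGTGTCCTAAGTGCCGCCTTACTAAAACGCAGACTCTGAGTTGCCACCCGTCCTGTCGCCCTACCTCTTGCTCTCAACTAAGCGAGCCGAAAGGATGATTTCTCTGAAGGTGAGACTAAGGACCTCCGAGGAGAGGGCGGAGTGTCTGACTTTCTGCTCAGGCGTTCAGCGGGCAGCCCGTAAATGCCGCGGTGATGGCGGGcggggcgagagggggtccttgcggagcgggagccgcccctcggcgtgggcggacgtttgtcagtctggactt
Overlap with a window on the other strand was found for 5 of the 27 member genes with a window in the table (18.5%) and for 3212 of 27025 genes overall (11.9%). The second window belongs to Slc25a20, the carnitine-acylcarnitine carrier (chr9:108661886-108662185, plus strand). Capitals mark its match to a DR1 element, the spacing at which PPAR and RXR pairs are known to bind, searched on both strands as AGGTCA, any base, AGGTCA with up to 2 mismatches.
Slc25a20: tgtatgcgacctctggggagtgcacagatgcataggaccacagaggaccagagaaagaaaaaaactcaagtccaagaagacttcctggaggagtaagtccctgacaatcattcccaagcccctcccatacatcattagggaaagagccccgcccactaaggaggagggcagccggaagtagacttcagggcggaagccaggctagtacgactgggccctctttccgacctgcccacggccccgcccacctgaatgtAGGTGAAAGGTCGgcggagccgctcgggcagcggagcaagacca
The match starts 6 bases after the gene's start. Such matches were present for 3 of the 27 member genes with a window (11.1%), Slc25a20, Echs1 and Etfa, against 4.40% of 27025 genes. The element TCAAGGTCA, bound by estrogen-related receptors, had no exact match in the windows of these 27 genes and was found for 0.466% of all genes. A match is a description of letters, not a binding site.

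The libraries held 3468 to 5327 cells and 47258161 to 62567817 unique molecular identifiers (UMIs, each one counted RNA molecule) after likely doublets were removed, with a median of 9968 to 13365.5 UMIs per cell. Levels are UMIs summed over cells and scaled to an equal library total (CPM). Counting at the 3-prime end gives 1 UMI per molecule whatever its length, so no length correction was applied. Epithelial markers (Epcam, Cdh1, Vil1, Krt8 and Krt18) summed to 4343 to 21826 CPM, while summed immune markers reached at most 0.489 CPM, fibroblast markers 0.176 CPM and red cell markers 0. Summed enterocyte markers (9 genes, of which Lct was at 0 with the antagonist) were 46808 CPM in the day-4 vehicle, 6089 with the antagonist, 114195 with retinoic acid, 30128 without vitamin A, and 6601 and 11873 in day-1 libraries 1 and 2. Pairs of libraries shared 2 to 17 cell barcodes. In sums over all cells, a smaller share of cells of a type and less RNA per cell cannot be told apart.

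Together the 33 genes made up 6032 CPM in the day-4 vehicle, 5914 with the RXR antagonist, 11236 with retinoic acid and 5724 without vitamin A. The day-1 libraries held 3557 and 4053 CPM. The retinoic acid library was thus the highest and the day-1 libraries the lowest, while the other day-4 libraries lay close together. The most abundant members in the day-4 vehicle were Hadh at 900 CPM, Acaa2 at 630 CPM and Acsl5 at 500 CPM, and the lowest was Slc22a5, the plasma membrane carnitine transporter, with 75 UMIs. Of the 33 genes, 25 had their highest level in the retinoic acid library and 4 in the antagonist library, and 31 reached 10 CPM in all 6 libraries.

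**Figure D1:**
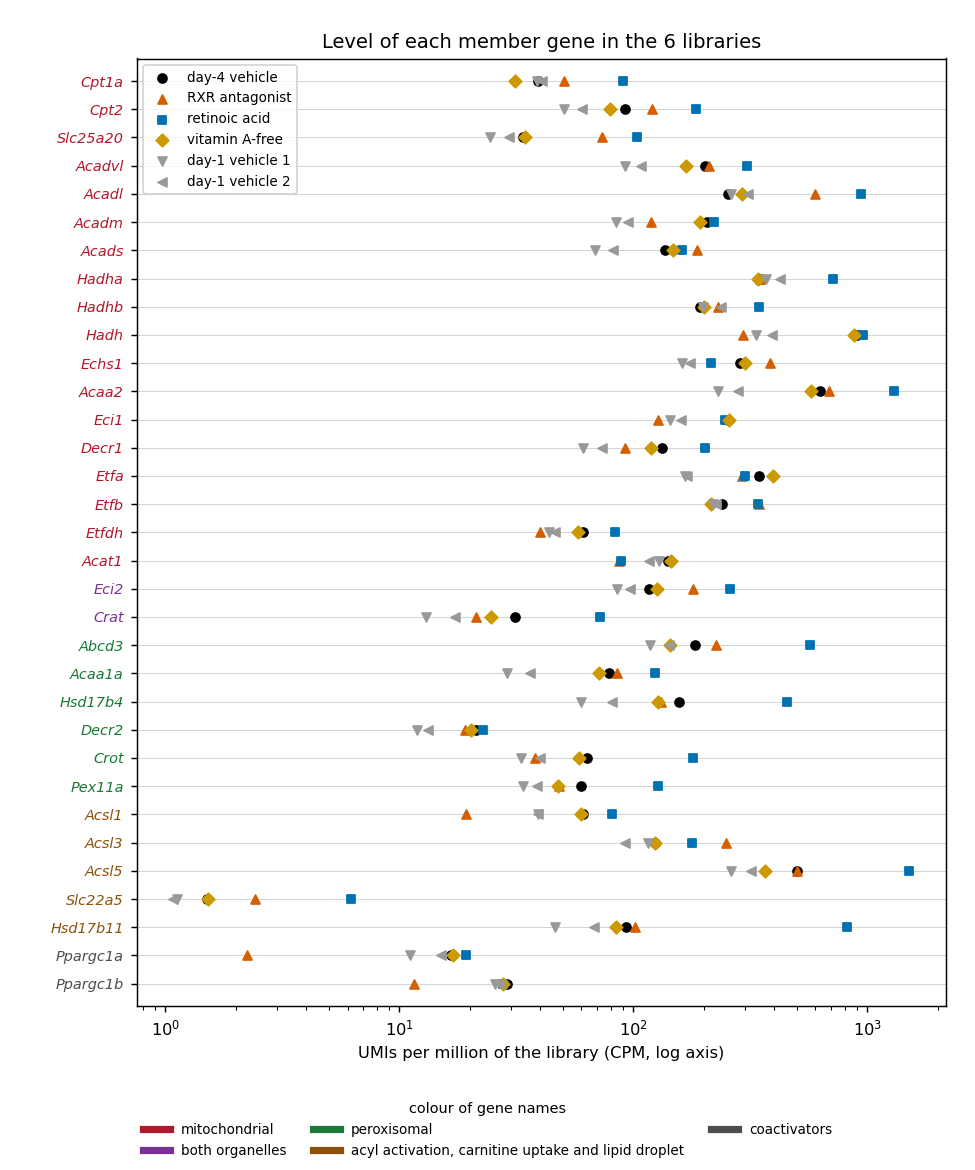
Level of each member gene in CPM on a log axis, with 1 point per library and gene names coloured by organelle or role. Retinoic acid (blue squares) gave the highest level for 25 of the 33 genes.

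The balance between the organelles differed between libraries. Peroxisomal members made up 11.1% of the UMIs of peroxisomal and mitochondrial members together in the day-4 vehicle (95% exact binomial interval 11.0 to 11.2%), 11.3% with the antagonist and 9.61% without vitamin A. With retinoic acid they made up 17.8% (17.7 to 17.9%), and at day 1 they made up 9.63% and 10.4%. The retinoic acid library lay above the other 5, and the day-1 libraries differed from each other by more than the counting error. Intervals here and below cover counting error only, not differences between cultures.

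Per cell, the 18 mitochondrial members took a median of 0.469% of UMIs in the day-4 vehicle, 0.424% with the antagonist, 0.71% with retinoic acid and 0.441% without vitamin A. For the 6 peroxisomal members these medians were 0.052%, 0.051%, 0.153% and 0.04%. In the retinoic acid library the lower quartile of cells for peroxisomal members, 0.11%, lay above the upper quartile of the day-4 vehicle, 0.078%.

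**Figure D2:**
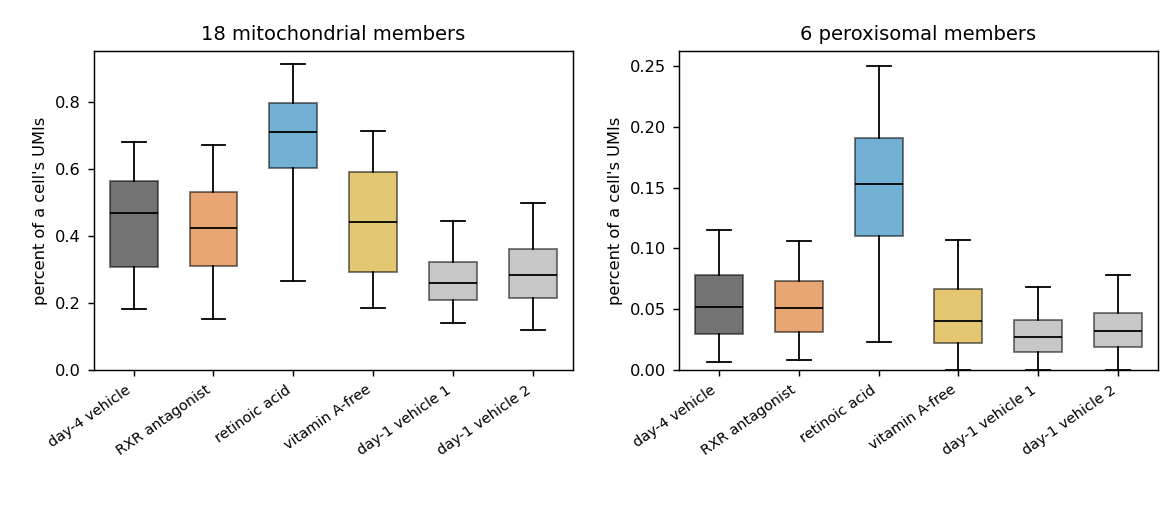
Percent of each cell's UMIs from the 18 mitochondrial (left) and 6 peroxisomal (right) members, as medians (lines), quartiles (boxes) and the 5th and 95th percentiles of cells (whiskers). The retinoic acid box for peroxisomal members lies above the boxes of the other 5 libraries.

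Retinoic acid, the active form of vitamin A, was compared with the vehicle at day 4. There was 1 library on each side, so the difference has no replicate check and was not tested. Genes are called higher or lower where the log2 ratio of CPM, with 5 CPM added to both, passed 1.5-fold and 1 of the libraries reached 10 CPM. Fold values and their intervals, here and below, are ratios of CPM without the added 5. They therefore differ from the log2 ratios, most of all for genes of low level. Of the 33 genes 18 were higher, 1 was lower, 13 were neither and Slc22a5 stayed under 10 CPM. Among all 7976 genes compared, 6.03% were higher and 20.9% lower. The median log2 ratio was 1.23 for peroxisomal and 0.54 for mitochondrial members, beside -0.27 over all genes. The background split depended on scaling, with 481 genes higher and 1666 lower at equal library totals, 1177 and 625 with TMM factors and 1321 and 550 with DESeq2 size factors.

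Hsd17b11, a lipid droplet dehydrogenase, showed the largest ratio of the members. It stood at 92.6 CPM in the day-4 vehicle, 102 with the antagonist, 818 with retinoic acid, 84.2 without vitamin A, and 46.4 and 67.9 at day 1. Retinoic acid alone was far from the rest, at 8.83-fold the vehicle (95% exact interval 8.57 to 9.11). Acsl5, an acyl-CoA synthetase abundant in the intestine, stood in the same order of libraries at 500, 500, 1507, 365, 262 and 319 CPM. It was 3.02-fold the vehicle with retinoic acid, and its share of all member UMIs was 13.4% there against 8.28% in the vehicle. The other synthetases, Acsl1 and Acsl3, were 1.32-fold and 1.44-fold the vehicle and did not pass the threshold. Slc22a5 had 75 UMIs in the vehicle and 377 with retinoic acid (4.15-fold, 3.23 to 5.40), but stayed under the 10 CPM minimum.

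Of the 6 peroxisomal members 5 were higher with retinoic acid. Abcd3, which carries acyl-CoA into peroxisomes, stood at 183 CPM in the day-4 vehicle, 225 with the antagonist, 570 with retinoic acid, 144 without vitamin A, and 118 and 142 at day 1. Its retinoic acid level was above all others, at 3.11-fold the vehicle (3.04 to 3.19). Hsd17b4, the peroxisomal multifunctional enzyme, was 2.90-fold the vehicle, and Crot, which makes carnitine esters of shortened chains for export, 2.85-fold. Pex11a, a peroxisome division factor, was 2.13-fold the vehicle and the thiolase Acaa1a 1.58-fold. Decr2, the peroxisomal 2,4-dienoyl-CoA reductase, was 1.07-fold the vehicle and did not pass. Acaa1b, a close copy of Acaa1a, was at 63.3 CPM in the vehicle and 712 CPM with retinoic acid, and reads could be divided uncertainly between the copies. Crat and Eci2, present in both organelles, were 2.32-fold and 2.21-fold the vehicle.

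Among mitochondrial members, 9 of 18 were higher with retinoic acid. All 3 genes of long-chain entry were higher, with Cpt1a at 2.31-fold, Cpt2 at 2.01-fold and Slc25a20 at 3.06-fold the vehicle. Acadl, the long-chain acyl-CoA dehydrogenase, was 3.68-fold the vehicle (3.61 to 3.75) and the very-long-chain enzyme Acadvl 1.51-fold. The medium-chain and short-chain enzymes Acadm and Acads were 1.07-fold and 1.18-fold. Hadha and Hadhb, on the shared promoter above, were 2.02-fold and 1.79-fold the vehicle, whereas Hadh, the short-chain 3-hydroxyacyl-CoA dehydrogenase, was 1.07-fold.

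Past these steps the pattern was mixed. The thiolase Acaa2 was 2.06-fold the vehicle and the dienoyl reductase Decr1 1.54-fold. The hydratase Echs1 was 0.751-fold the vehicle, and the electron carriers Etfa, Etfb and Etfdh were 0.869-fold, 1.42-fold and 1.37-fold. Acat1, a thiolase of short chains and ketone bodies, was the only lower member, at 0.628-fold the vehicle. That call was lost with TMM and DESeq2 factors and after centring on the median gene, where its log2 ratio was -0.26, -0.22 and -0.37. With those factors 23 members were higher and 0 lower.

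Genes outside the 33 were taken from lists of related pathways. Of 24 other peroxisomal lipid genes 15 were higher and 0 lower with retinoic acid, among them Acaa1b with a log2 ratio of 3.39 and the thioesterase Acot3 with 2.78. None of 15 peroxisome assembly genes passed in either direction. Of 20 other mitochondrial fatty acid genes 3 were higher (Acot2 at 2.67 on the log2 scale, Acad11 at 1.32 and Mlycd) and 4 lower (Pccb at -1.31, Acadsb at -0.94, Acss1 and Pcca). None of 26 nuclear-encoded respiratory chain genes passed, and of 19 TCA cycle genes 0 were higher and 2 lower (Pdha1 and Pdhb). Beside these lists, 6.03% of all genes compared were higher and 20.9% lower. Of 13 regulators 3 were higher (Pdk4, Ppara and Ucp2) and 3 lower (Ppard, Pparg and Tfam), with log2 ratios of 3.57 for Pdk4 and 1.64 for Ppara. Taken relative to the all-gene median of -0.27, the counts higher and lower were 16 and 0 for the other peroxisomal lipid genes, 2 and 0 for assembly, 6 and 3 for the other mitochondrial genes, 4 and 0 for the respiratory chain, 2 and 0 for the TCA cycle, and 3 and 2 for the regulators. The lower calls of Pdha1, Pdhb, Pcca and Tfam were lost on that scale. Enterocyte markers moved with these results, and their part in them was not tested at the level of whole libraries.

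**Figure D3:**
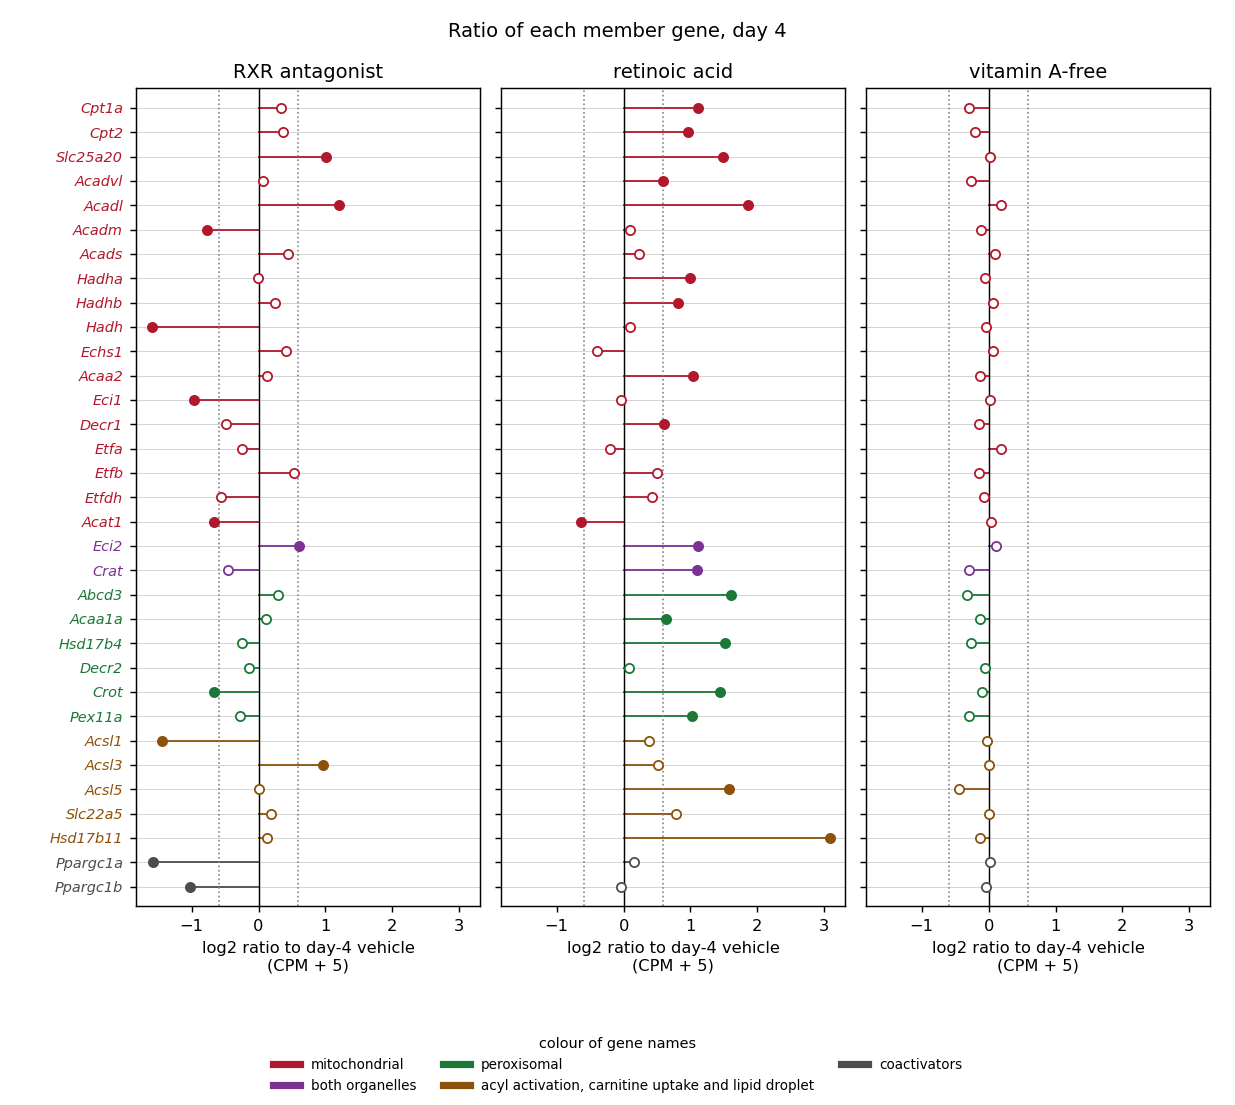
Log2 ratio of each member gene to the day-4 vehicle, computed from CPM + 5, for the 3 other day-4 libraries. Filled points passed 1.5-fold (dotted lines) and the 10 CPM minimum. Retinoic acid has 18 filled points on the right and 1 on the left, the antagonist 4 and 8, and vitamin A-free medium 0.

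The RXR antagonist was compared with the same vehicle library, so the retinoic acid and antagonist ratios share their control. Of the 33 genes 4 were higher and 8 lower, against 14.6% higher and 15.4% lower among all 8387 genes compared. The median log2 ratio was 0.09 for mitochondrial and -0.19 for peroxisomal members, beside 0.01 over all genes. The members' medians were near 0, but single genes of the same cycle differed widely in both directions.

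Acadl stood at 255 CPM in the day-4 vehicle, 597 with the antagonist, 938 with retinoic acid, 291 without vitamin A, and 261 and 309 at day 1. Both treated libraries were above the other 4, and the antagonist was 2.34-fold the vehicle (2.29 to 2.39). Slc25a20 stood at 33.9, 73.3, 104, 34.4, 24.4 and 29.5 CPM in the same order, at 2.16-fold the vehicle with the antagonist. The other members higher with the antagonist were Acsl3, a synthetase of the lipid droplet surface, at 2.00-fold and Eci2 at 1.54-fold. Cpt1a and Cpt2 were 1.29-fold and 1.31-fold the vehicle and did not pass.

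Hadh stood at 900 CPM in the day-4 vehicle, 293 with the antagonist, 962 with retinoic acid, 875 without vitamin A, and 335 and 392 at day 1. The antagonist library lay below both day-1 libraries, and the vehicle was at 3.07-fold its level (lower bound 3.01). Acadm stood at 207, 119, 221, 192, 84.0 and 94.9 CPM, so that the antagonist lay between the day-1 and the other day-4 libraries. It was 0.576-fold the vehicle, and the isomerase Eci1 was 0.504-fold and Acat1 0.615-fold. Hadha was 0.992-fold the vehicle (0.971 to 1.01) and Hadhb 1.19-fold.

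Both coactivators were lower with the antagonist. Ppargc1a, a driver of mitochondrial gene expression, stood at 16.6 CPM in the day-4 vehicle, 2.24 with the antagonist, 19.2 with retinoic acid, 17.0 without vitamin A, and 11.1 and 15.1 at day 1. The antagonist library was the lowest, and the vehicle was at 7.40-fold its level. With 5 CPM added to both, the log2 ratio of this low gene was -1.58. Ppargc1b was 0.401-fold the vehicle. Acsl1 was 0.316-fold the vehicle, while Acsl5 was 1.00-fold (0.983 to 1.02). Among peroxisomal members only Crot passed, at 0.603-fold, and Abcd3 was 1.23-fold.

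In contrast to the 6 peroxisomal members, of which 1 was lower, 12 of the 24 other peroxisomal lipid genes were lower with the antagonist and 1 (Abcd4) higher, and their median log2 ratio was -0.67. That difference between the lists was not tested. The lowest ratios were those of Ephx2 at -3.93 and Acaa1b at -3.71. Of 26 respiratory chain genes 6 were lower and 0 higher (median -0.46), and of 19 TCA cycle genes 3 were lower (Sdhb, Sdhd and Suclg1) and 0 higher. Among all genes compared 14.6% were higher and 15.4% lower, the latter near the share of TCA cycle genes called lower. Of 13 regulators 1 was higher (Pparg, at 2.25 on the log2 scale) and 3 lower, among them Nrip1 at -0.93 and Esrra at -0.81. The median log2 ratio of the regulators was -0.39. Regenerative markers (7 genes, Ly6a and Ly6d among them) summed to 7221 CPM with the antagonist against 65.3 in the vehicle. Enterocyte markers summed to 6089 CPM with the antagonist against 46808 in the vehicle. The part of either list in the whole-library ratios was not tested.

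Medium free of vitamin A gave no call in either direction among the members, while 1.34% of 8180 genes were higher and 1.34% lower. Member log2 ratios ran from -0.45 to 0.19, with medians of -0.20 for peroxisomal and -0.04 for mitochondrial members and 0.08 over all genes. All 6 peroxisomal members had ratios below 0, from -0.33 for Abcd3 to -0.06 for Decr2, within the 1.5-fold threshold. Day-1 libraries 1 and 2, both vehicle, differed by medians of -0.25 for peroxisomal and -0.21 for mitochondrial members. The medians without vitamin A were no larger than these. Acsl5, at 365 CPM against 500, had the lowest ratio and passed the threshold with TMM (-0.59) and DESeq2 (-0.61) factors. Of the 24 other peroxisomal lipid genes Acaa1b was lower, with a log2 ratio of -0.60, and 0 were higher.

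Vehicle organoids at day 4 were compared with day 1 by edgeR's quasi-likelihood test over 17592 genes. The 2 day-1 libraries leave 1 residual degree of freedom, and the lone day-4 library is assumed to vary like them. Of the 33 genes 22 rose, 0 fell and 11 did not pass at an adjusted p of 0.05, against 17.3% of all genes that rose and 16.9% that fell. The median log2 fold change was 0.96 for peroxisomal and 0.92 for mitochondrial members and -0.03 over all genes. All 6 peroxisomal members, both members found in both organelles, 11 of 18 mitochondrial members, 3 of 5 activation, uptake and droplet genes and neither coactivator rose.

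Among the peroxisomal genes Acaa1a, at 28.8 and 36.0 CPM at day 1, rose to 78.5 CPM (log2 fold change 1.46 ± 0.18 SE, adjusted p = 0.00331, edgeR) and Hsd17b4, at 59.9 and 81.4 CPM, rose to 156 CPM. In mitochondria Hadh rose from 364 ± 40.4 CPM (SD, n = 2) to 900 CPM (1.49 ± 0.16 SE, adjusted p = 0.00254 by edgeR), and Acaa2 from 254 ± 36.5 CPM (SD, n = 2) to 630 CPM with the same log2 change. Acadm rose by 1.39, Etfa by 1.22 and Acadvl by 1.19 on the log2 scale. These genes sat well above both day-1 libraries in the day-4 vehicle.

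The trifunctional protein genes did not pass. Hadha stood at 368 and 425 CPM at day 1 and 351 CPM at day 4 (log2 fold change 0.00 ± 0.16 SE, adjusted p = 0.986, edgeR). Hadhb stood at 198 and 237 CPM at day 1 and 192 CPM at day 4, also with a log2 fold change of 0.00 (± 0.17 SE, adjusted p = 0.997 by edgeR). For both genes the day-4 CPM lay below both day-1 values, but not the TMM-scaled value. Acadl (0.02 ± 0.17 SE) and Cpt1a (0.16 ± 0.14 SE) likewise did not pass, with edgeR adjusted p of 0.946 and 0.419. Slc25a20 (0.51, adjusted p = 0.0642 by edgeR), Etfb, Acat1, Acsl3, Slc22a5, Ppargc1a and Ppargc1b were the remaining genes that did not pass.

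**Figure D4:**
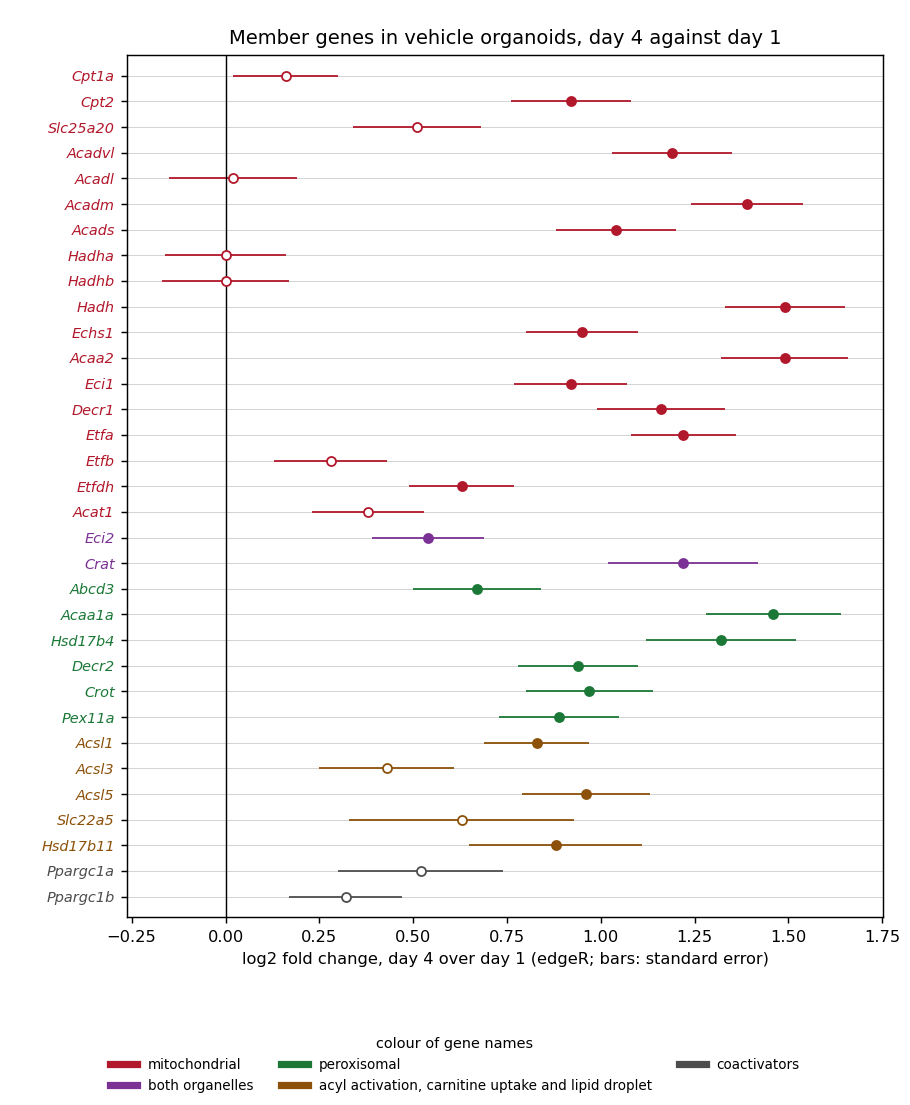
Log2 fold change of each member gene in vehicle organoids, day 4 over day 1, with its standard error (edgeR, 1 library against 2). Filled points passed an adjusted p of 0.05, and Hadha, Hadhb and Acadl lie at 0.

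Related lists also held many genes that rose. Of 24 other peroxisomal lipid genes, of which 22 were tested, 18 rose and 1 (Nudt19) fell. The same counts were 12 and 2 (Acad9 and Acot9) of 20, 19 of them tested, for other mitochondrial fatty acid genes, 16 and 1 (Cycs) of 26 for the respiratory chain, and 12 and 1 (Idh3a) of 19 for the TCA cycle. Between the day-1 libraries 29 of 33 members were higher in library 2, which also had the higher sum of enterocyte markers (11873 against 6601 CPM). Enterocyte markers thus moved with the day-4 result too. The 7 cycling markers (Mki67 and Top2a among them) went the other way, from 1574 and 1341 CPM at day 1 to 541 CPM at day 4. The part of either list in the result was not tested.

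To see the members at a more even cell makeup, cells of all libraries were clustered without the members and the related genes, and clusters were named from marker genes. Enterocyte-like cells made up 39.7% of the day-4 vehicle, 83.5% with retinoic acid and 31.7% without vitamin A, and 1 cell with the antagonist fell in such a cluster. Of cells given the antagonist, 53.7% were regenerative-like. That share depended on the clustering resolution, since at 0.6 a regenerative-like cluster held 3285 of the 3468 antagonist cells. Cycling-like cells made up 8.43% of the day-4 vehicle and 70.0% and 52.3% of the day-1 libraries. Goblet-like cells formed 1 cluster in all libraries, with 151 cells in the day-4 vehicle, 126 with the antagonist and 98 with retinoic acid, although the Paneth genes Defa24 and Defa30 were among its 10 leading genes. The larger vehicle enterocyte-like cluster had 0 of the 9 enterocyte markers among its 10 leading genes and was named from 3 raised markers. Names were rebuilt from markers, and 1503 vehicle cells stayed in unnamed clusters.

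Member levels differed between classes. In the day-4 vehicle the 33 genes summed to 7586 CPM in enterocyte-like cells, 3839 CPM in cycling-like cells, 3323 CPM in stem-like cells, 2679 CPM in goblet-like cells and 2485 CPM in enteroendocrine-like cells. Enterocyte-like cells were the highest of the named classes. With the antagonist, regenerative-like cells summed to 5257 CPM, and an unnamed cluster of 1426 cells led by Nupr1 and Paqr5 made up nearly all of the cells behind the 7177 CPM of its unnamed cells. Regenerative-like cells of the day-1 libraries, which fell in another cluster, summed to 3812 and 4075 CPM.

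Within goblet-like cells 12 members were higher and 0 lower with retinoic acid, against 8.33% and 8.57% of 8630 genes. Within cycling-like cells 12 were higher and 0 lower, against 1.94% and 4.73% of 8385 genes, and within stem-like cells 5 and 0, against 0.841% and 2.93% of 8443 genes. Within enterocyte-like cells 16 were higher and 1 lower, against 4.97% and 11.2% of 7019 genes, but vehicle and retinoic acid cells fell in different clusters there (5 and 7 against 12, 16 and 17). All of these comparisons use the same pair of libraries and have no replicate.

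Cpt1a was among the genes higher in each of the 4 classes, at 2.00-fold the vehicle in stem-like, 2.34-fold in cycling-like, 3.43-fold in goblet-like and 2.43-fold in enterocyte-like cells. For Acadl these ratios were 1.64, 1.75, 2.44 and 3.09, and for Slc25a20 they were 1.87, 2.86, 2.99 and 2.77. The ratios of Hsd17b11 were 1.80, 2.51, 2.93 and 8.02, highest in enterocyte-like cells. Abcd3 passed in goblet-like cells at 1.56-fold (1.18 to 2.08) and in enterocyte-like cells at 2.76-fold. Hadha was 2.01-fold the vehicle in goblet-like and 1.71-fold in cycling-like cells. Peroxisomal members summed to 257 CPM in stem-like cells with retinoic acid and 251 CPM in the vehicle, and to 1675 and 748 CPM in enterocyte-like cells. Median log2 ratios of peroxisomal and mitochondrial members were 0.14 and 0.09 in stem-like and 0.26 and 0.28 in cycling-like cells. They were 0.39 and 0.29 in goblet-like and 1.02 and 0.38 in enterocyte-like cells. The organelles thus lay clearly apart only in enterocyte-like cells, where vehicle and retinoic acid cells fell in different clusters.

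Free RNA from enterocytes can add UMIs to other cells. Goblet-like cells of the retinoic acid library held enterocyte markers at 12942 CPM, 11.3% of that library's level, against 1554 CPM, 3.32%, in the vehicle. Member genes stood at 33.2% and 44.4% of their library levels in the same cells. In cycling-like cells enterocyte markers stood at 15098 CPM (13.2% of the library level) with retinoic acid and 3755 CPM (8.02%) in the vehicle. In stem-like cells they stood at 2542 CPM (2.23%) and 1253 CPM (2.68%), so that the share of the library level was not raised there. The part of these markers in the class ratios was not tested.

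For the antagonist, goblet-like cells were the class that could be compared with the vehicle, and 4 members were higher and 8 lower there, against 12.5% and 29.2% of 8703 genes. Acadl stood at 83.8 CPM in the vehicle and 204 CPM with the antagonist (2.43-fold, 1.93 to 3.08), and Hadh at 230 and 89.4 CPM (0.389-fold, 0.311 to 0.485). Acadm was 0.551-fold the vehicle, Eci1 0.615-fold and Acat1 0.601-fold, while Cpt1a was 1.97-fold and Slc25a20 2.00-fold. Enterocyte markers in these cells were at 453 CPM with the antagonist and 1554 CPM in the vehicle. The all-gene median was -0.22 in this comparison, and relative to it 5 members were higher (Cpt1a, Slc25a20, Acadl, Acaa1a and Etfb) and 2 lower (Hadh and Pex11a), so that the lower calls of Acadm, Eci1, Etfa, Etfdh, Acat1 and Crot depended on scaling. Of the members called in whole libraries, Slc25a20, Acadl, Acadm, Hadh, Eci1, Acat1 and Crot were also called in these cells, before centring on that median. Acsl3 was 0.781-fold the vehicle here (0.559 to 1.09) against 2.00-fold in the whole library, and Ppargc1b 0.891-fold (0.371 to 2.12) against 0.401-fold. Eci2 at 1.22-fold and Acsl1 at 0.654-fold did not pass, and Ppargc1a was under the 10 CPM minimum in these cells.

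**Figure D5:**
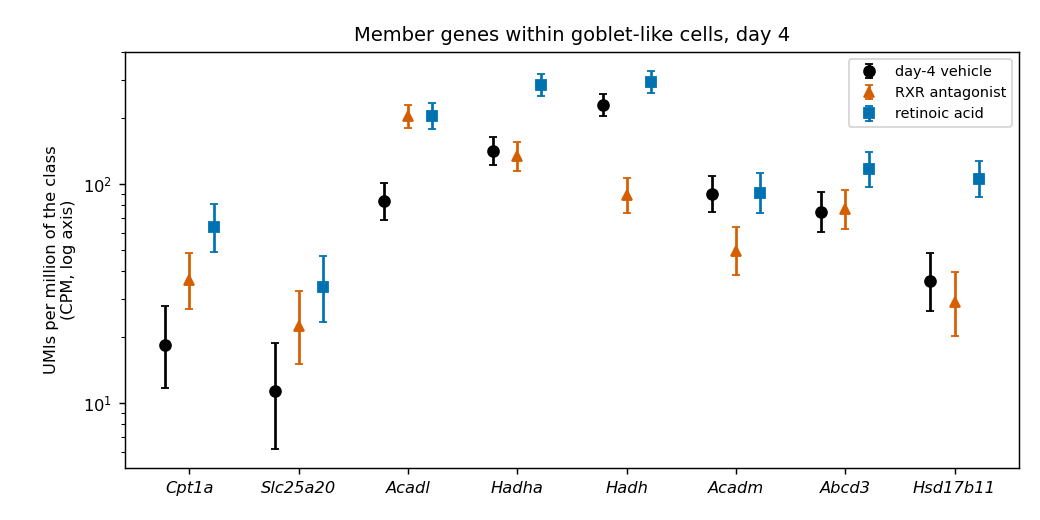
Levels of 8 member genes within goblet-like cells at day 4, in CPM on a log axis, with exact 95% Poisson intervals for counting error. Acadl is higher and Hadh lower with the antagonist, and Cpt1a, Hadha and Hsd17b11 are highest with retinoic acid.

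Goblet-like cells also allowed day 4 to be set against day 1 by edgeR over 9913 genes, of which 3.05% rose and 1.66% fell. Of 31 members tested 1 rose and 0 fell, and 7 had an unadjusted p under 0.05. The gene was Echs1, an enoyl-CoA hydratase (0.94 ± 0.26 SE, adjusted p = 0.0447 by edgeR). The median log2 fold change of the tested members was 0.42, with a range from -0.56 to 1.01, beside -0.00 over all genes. The 33 genes summed to 2679 CPM in goblet-like cells at day 4 and to 2263 and 2086 CPM at day 1. In cycling-like cells, which came from different clusters at the 2 times, the sums were 3839 CPM at day 4 and 3465 and 3908 CPM at day 1. Unnamed cells of the day-1 libraries (218 and 483 cells) held enterocyte markers at 45477 and 50608 CPM. Their members summed to 6083 and 6440 CPM. In the day-4 vehicle members summed to 6309 CPM in unnamed cells, from other clusters, and to 7586 CPM in enterocyte-like cells. The part of such cells in the whole-library result was not tested.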

How the data were processed

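Droplet 3-prime single-cell RNA libraries were analysed. The authors deposited raw counts of UMIs, per the file headers one value for each gene in each cell. The submitters' processing notes name bcl2fastq 2.17, Cell Ranger 3.1.0 and GRCm38 without stating what each was used for. The members and lists were chosen with earlier results of these data known.

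A filter at 500 genes, 1000 UMIs and 20% mitochondrial UMIs removed 0 barcodes. Scrublet marked 0 to 1.35% of barcodes per library, so the highest scores were removed instead, at 0.8% per 1000 barcodes (102 to 249 per library). UMIs were summed per library and scaled to CPM. Day 4 was tested against day 1 with edgeR 4.0.16 (TMM, filterByExpr, quasi-likelihood, Benjamini-Hochberg over all genes). This fit was tested on 3 simulated data sets of 16870 to 16889 genes with 200 changed. It recovered 78% of 2-fold and 100% of 4-fold changes, with a mean of 41.7 false calls. Even had all 200 been called, that is a larger share of false calls than the adjusted p threshold of 0.05 allows. Calls by this fit can therefore hold more false ones than the threshold implies. Standard errors (SE) of its log2 changes were derived from the test, as the size of the change over the square root of the F statistic. The 22 members that rose had adjusted p up to 0.0413. The day-1 libraries differed by more than sampling noise (chi-square per degree of freedom 68.4 over 14297 genes). Nothing says they came from separate cultures, so p-values measure the spread between these libraries only. Cells were clustered with scanpy 1.11.5 (Leiden, resolution 1.0, 30 components, 1995 genes without members or related genes). A cluster needed at least 3 raised markers for a name. Class comparisons needed 50 cells, and those of goblet-like and cycling-like cells were chosen after the clusters were seen.

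Named genes were all 33 members, the markers, Acaa1b, and from each related list up to 2 highest and 2 lowest ratios. Of the genes this rule picks, 1 is not reported here. Beyond these, genes behind counts of 5 or fewer (Ucp2, Tfam, Mlycd, Acss1, Pcca and Suclg1) were named after their values were seen. Alternatives were other scalings, no floor, a pseudocount of 1 CPM, no doublet removal, equal weight per cell, DESeq2 1.42.0, no TMM, no filter, leaving out each day-1 library, and a resolution of 0.6.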

Additional observations from a re-analysis of the deposited data

How the results depend on the processing

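No paired analysis was possible because how mice map to libraries is not given. With retinoic acid the count of lower members went from 1 to 0 with TMM factors, with DESeq2 factors and relative to the median of all genes. With equal weight per cell Acadvl lost its call with retinoic acid (log2 ratio 0.58) and Eci2 with the antagonist (0.57). Without vitamin A the count of lower members went from 0 to 1 with TMM and with DESeq2 factors. At a clustering resolution of 0.6 the higher members with retinoic acid were 8 rather than 5 in stem-like cells, and the lower members in enterocyte-like cells 0 rather than 1. At that resolution vehicle and retinoic acid cycling-like cells were under 50, so no value was computed. The unnamed antagonist cluster led by Nupr1 and Paqr5 did not stand apart there, as 3285 antagonist cells shared a regenerative-like cluster. The members that rose by day 4 in goblet-like cells were 2 rather than 1 at that resolution. Without either day-1 library the same count was 6 to 10 by the 1.5-fold rule, which is not a test, and 1 was lower. Over all cells that rule gave 15 to 19 higher and 0 lower members without a day-1 library. DESeq2 gave 22 members that rose, as edgeR did, and library totals without TMM gave 18. Eci2, Abcd3 and Hsd17b11 lost their call without TMM (adjusted p 0.124, 0.0732 and 0.0738) and without the filter (0.0802, 0.0644 and 0.0863), and Etfdh without TMM (0.0578), all by edgeR. No direction of a called member reversed under the alternatives run. With 1 library per day-4 group, library and treatment cannot be told apart. In goblet-like cells low counts limit single genes such as Slc25a20.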
